A study of Mus musculus with 6 samples.

Results

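The nuclear receptor superfamily was followed here as 36 genes, chosen by name: every row of the deposited count table whose symbol equals 1 of 36 receptor symbols was taken, and all 36 were found among 52459 rows. RNA was sequenced from 6 libraries of liver tumour tissue from mice of the MYC-LAP-tTA genotype. In this model the LAP promoter, which is active in hepatocytes, drives the tetracycline transactivator tTA, which sustains expression of a MYC transgene that can be turned off. The 3 MYC_Off libraries came from tumours in which MYC had been inactivated for 4 days, and the 3 MYC_On libraries came from tumours in which MYC was active. Both groups carry both transgenes, and the transgene is not driven in cells of the tissue that do not use the LAP promoter. The labels give no strain, no age and no count of animals. The p-values therefore set a group difference against the spread among the 3 samples of each group, which may be technical.

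Nuclear receptors are transcription factors that bind small fat-soluble ligands such as steroids, bile acids, oxysterols, fatty acids, thyroid hormone and retinoic acid, and many of them act as sensors of metabolism in hepatocytes. A receptor binds DNA through a zinc finger domain, and ligand in its C-terminal domain exchanges corepressor complexes for coactivator complexes. The sensors of bile acids, oxysterols, drugs and fatty acids work as heterodimers with a retinoid X receptor (RXR), whereas steroid receptors pair with themselves and several orphan receptors bind as monomers or homodimers.

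Each library held 16292718 to 19265623 reads assigned to genes, so that 1 read was worth 0.0519 to 0.0614 CPM, the read count scaled to a common library total. Levels below are CPM after TMM scaling, in the order of the replicate numbers, and fold changes are on the log2 scale as MYC_Off minus MYC_On with a standard error (SE). Adjusted p-values come from the quasi-likelihood test of edgeR, adjusted by Benjamini-Hochberg over all 14130 genes tested, and a gene is called at an adjusted p under 0.05. Myc, the switched gene, stood at 74.8, 10.2 and 18.7 CPM in MYC_Off and at 779, 1018 and 854 CPM in MYC_On, a log2 fold change of -4.67 (SE 0.80, edgeR adjusted p = 0.0035). Replicate 1 of MYC_Off held the most Myc of its group. All 8 genes of a list of growth genes known to follow MYC, among them Ppan and Nop56, were lower in MYC_Off. The 20 most abundant genes took 29.9% to 39.1% of reads in MYC_Off libraries and 11.7% to 19.2% in MYC_On libraries.

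Of the 36 receptor genes, 33 had enough reads to be tested, and 16 were called, 14 higher and 2 lower in MYC_Off. The receptors for bile acids, drugs, fatty acids and oestrogen were among those that rose, by between 1.88-fold for Nr3c1 and 67.3-fold for Esr1. Rxrb fell 1.85-fold and Nr1h5 fell 41.9-fold. The share of tested members called was 48.5%, beside 52.7% of all tested genes. The direction was uneven: 42.4% of tested members were called higher, beside 29.9% of all tested genes, and 6.06% were called lower, beside 22.8%. The median log2 fold change was 0.91 over the tested members and 0.18 over all tested genes.

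This split depends on the scaling between libraries. With library size alone, without the composition scaling, 7 members were called higher and 5 lower, so that 58.3% of member calls were higher, beside 87.5% with TMM. That setting moved the median of all genes by -0.74 and turned the share of all calls that were higher to 32.3%, beside 56.7% with TMM. Among the 16 called members, 3 passed the filter on low counts only because they were high in MYC_Off: Nr1i3, Nr2f1 and Nr4a3. The 42.4% of tested members called higher includes these 3, and without them the count of members called higher is 11. The share of all tested genes without such genes was not computed, so the 11 has no matched share beside it. In 16 members every MYC_Off library lay above every MYC_On library (33.2% of all tested genes did), in 2 every MYC_Off library lay below (29.8% of all), and in 15 the groups overlapped.

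**Figure D1:**
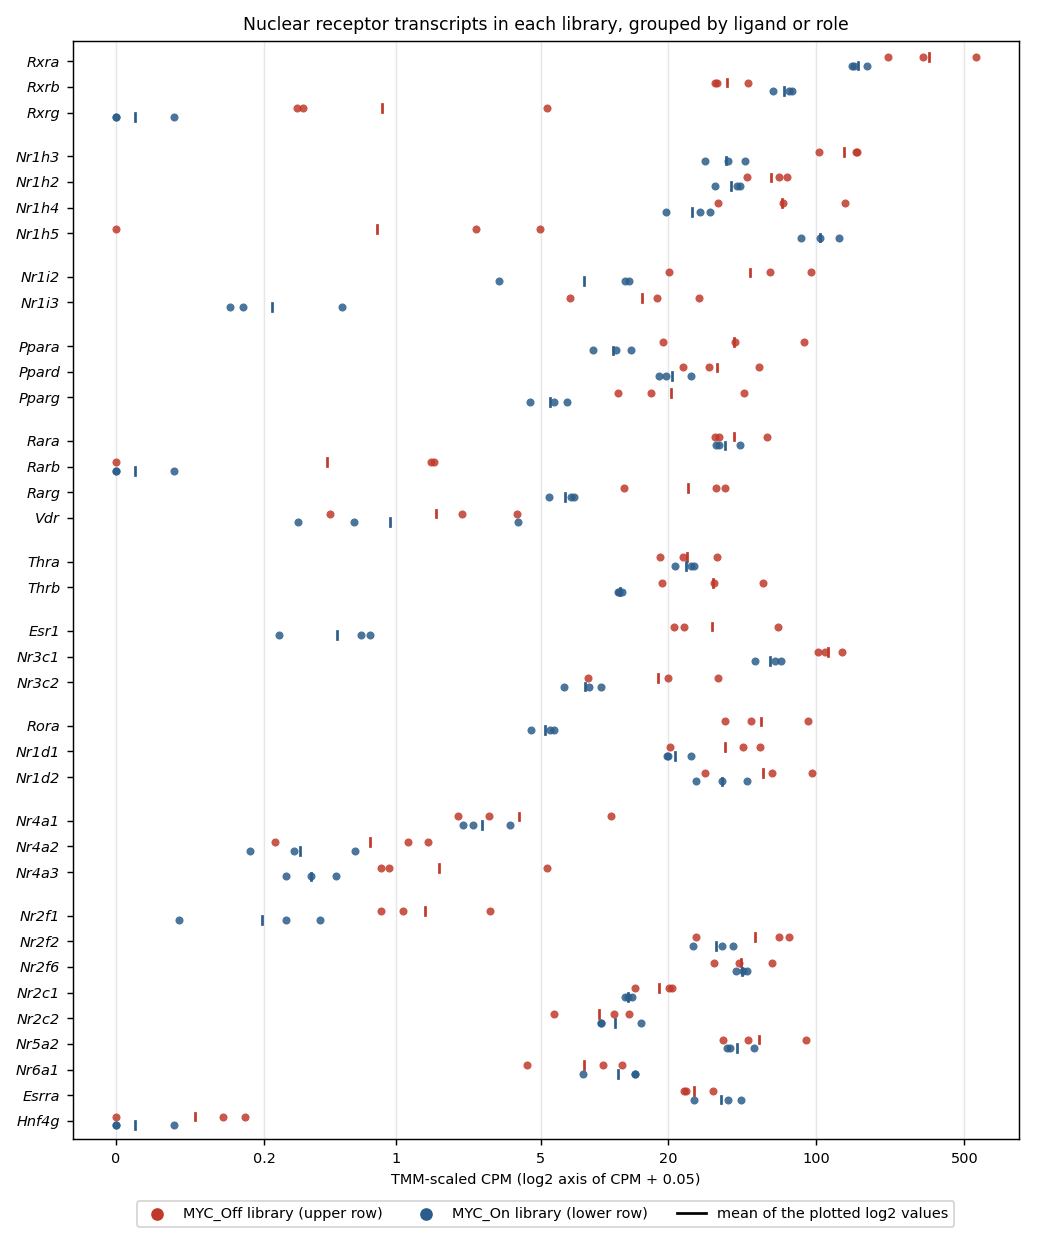
Level of each of the 36 receptor genes in each library, as TMM-scaled CPM on a log2 axis, with MYC_Off libraries in the upper row of each gene and MYC_On libraries in the lower row; the tick is the mean of the plotted log2 values. Esr1, Nr1i3 and Rora lie far to the right in MYC_Off, Nr1h5 lies far to the left, and genes such as Thra and Nr2f6 have overlapping rows.

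Cell type markers differed between the groups too, and in bulk tissue fewer cells of a type and less RNA per cell cannot be told apart, for any gene named here. The labelled tissue, liver, had its hepatocyte markers in every group. The 10 hepatocyte markers summed to between 88195 and 260001 CPM in MYC_Off and to between 4434 and 8843 CPM in MYC_On, with 8 of 10 called higher. Pericentral hepatocyte markers summed to 779 to 9529 CPM in MYC_Off and 253 to 357 CPM in MYC_On (5 of 6 tested called higher). Periportal markers summed to 844 to 4887 CPM in MYC_Off and 234 to 529 CPM in MYC_On, with 7 of 7 called higher. In replicate 1 of MYC_Off, Gls2 (60.4 CPM) lay below every MYC_On library, and Arg1 (285) and Hsd17b13 (61.5) lay within their range.

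Markers of cells other than hepatocytes were higher in MYC_Off as well. Liver endothelial markers summed to 364 to 741 CPM in MYC_Off and 60.4 to 66.1 CPM in MYC_On (6 of 7 tested called higher), and stellate cell and fibroblast markers to 761 to 2163 CPM in MYC_Off and 108 to 127 CPM in MYC_On (7 of 7). Macrophage and Kupffer cell markers summed to 601 to 2772 CPM in MYC_Off and 212 to 353 CPM in MYC_On (6 of 8 called higher). In replicate 3 of MYC_Off, Clec4f (0 CPM), Marco (0.0768) and Timd4 (12.9) lay below every MYC_On library, and Vsig4 (0.461) lay within their range. Adgre1, Csf1r, Cd68 and C1qa lay above the MYC_On libraries there, and C1qa (272) and Cd68 (213) made up most of the sum. The lymphoid lists were uneven within MYC_Off: T and NK cell markers summed to 214, 26.6 and 4.84 CPM in MYC_Off and to 2.98, 4.22 and 4.64 CPM in MYC_On (6 of 7 called higher). B cell markers summed to 1.54 to 45.9 CPM in MYC_Off and 0.39 to 0.94 CPM in MYC_On, with the 1 tested marker called higher. Neutrophil markers summed to 89.2 to 141 CPM in MYC_Off and 0.70 to 2.05 CPM in MYC_On (5 of 5). Of these, Retnlg, Cxcr2 and Mmp8 were at 0.197 CPM or less in every MYC_On library. The low-count filter asks for about 0.549 CPM in 3 libraries, so they entered the test only through MYC_Off and their calls carry little weight. The T and NK cell markers Cd8a and Trac were likewise low in MYC_On replicates 1 and 2. Cholangiocyte markers summed to 86.3 to 257 CPM in MYC_Off and 44.2 to 104 CPM in MYC_On, with 2 of 5 called higher and 1 lower. Sox9, 1 of the 2 called higher, had at most 0.134 CPM in MYC_On and passed the filter only through MYC_Off. Cd79b, the tested B cell marker, averaged 0.319 CPM in MYC_On, the endothelial marker Lyve1 0.496 and the stellate and fibroblast marker Lum 0.378. The filter favoured their direction as well. Several of the marker counts rested on single libraries. The T and NK cell count of 6 was 2 without MYC_Off replicate 1, 0 without MYC_On replicate 1 or 2, 1 without MYC_On replicate 3 and 0 with limma-voom. The macrophage count of 6 was 2 without MYC_On replicate 1 or 2 and 3 without replicate 3. The neutrophil count stayed at 5 or 6 without any 1 library, whereas the B cell count was 0 without any 1 of the MYC_On libraries. The periportal count of 7 was 4, 3 and 4 without MYC_On replicates 1, 2 and 3 and 4 without MYC_Off replicate 2 or 3. The pericentral count of 5 was 2 without MYC_Off replicate 2 or any 1 of the MYC_On libraries, and 8 without MYC_Off replicate 3.

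No marker in these lists was at 0 in all 3 libraries of a group, and the part of cell type makeup in the receptor changes was not tested.

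The retinoid X receptors are the shared dimer partners of the sensors. Rxra (chr2:27676440-27762957, plus strand, mm10), the main RXR of hepatocytes, had 218, 564 and 320 CPM in MYC_Off and 148, 174 and 151 CPM in MYC_On. Every MYC_Off library was above every MYC_On library, and replicate 2 of MYC_Off was the highest. The log2 fold change was 1.22 (SE 0.38, edgeR adjusted p = 0.0312). Rxrb (chr17:34031812-34038399, plus strand), a broadly expressed paralogue, moved the other way, with 47.7, 33.3 and 34.1 CPM in MYC_Off and 62.3, 74.2 and 76.9 CPM in MYC_On. All 3 MYC_Off libraries lay below all 3 MYC_On libraries, and the log2 fold change was -0.89 (SE 0.23, edgeR adjusted p = 0.0154). Rxrg, the form best known from muscle and brain, had too few reads to be tested: 80 reads over the MYC_Off libraries and 1 read over the MYC_On libraries, a scaled ratio of 121 with an exact 95% interval of 21.2 to 4851. Most of those reads came from replicate 2 of MYC_Off, at 5.36 CPM. Without a filter on low counts Rxrg was tested and called higher.

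The Rxra call did not hold without MYC_Off replicate 2 (log2 fold change 0.68, adjusted p = 0.0652), without any 1 of the MYC_On libraries (adjusted p 0.0929 to 0.125) and with library size alone (0.41, adjusted p = 0.294). The Rxrb call held in all 14 alternatives, which changed the scaling, the filter, the test or the pairing or left out 1 library, with log2 fold changes of -1.57 to -0.85.

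Because Rxra and Rxrb moved apart, their promoter windows are shown side by side. RefSeq promoter windows on GRCm38.p6, the mm10 assembly, run from 250 bases before to 50 bases after a start site. They were searched on both strands for the E-box CACGTG, a sequence that MYC with its partner MAX can bind, and for the nuclear receptor half-site AGGTCA. In the windows below, printed 5′ to 3′ on the gene's strand, capitals mark these motifs. Each of these genes has 2 RefSeq start windows. The outer Rxra window (chr2:27676951-27677250, plus strand, 83.0% G and C) holds neither motif. The inner Rxra window (chr2:27709042-27709341, plus strand, 54.3% G and C) holds 2 half-sites, the first at position -87 from the start and read on the minus strand. The outer Rxrb window (chr17:34031562-34031861, plus strand, 68.7% G and C) holds neither motif, nor does the inner one (82.0% G and C), which is not printed.
Rxra outer: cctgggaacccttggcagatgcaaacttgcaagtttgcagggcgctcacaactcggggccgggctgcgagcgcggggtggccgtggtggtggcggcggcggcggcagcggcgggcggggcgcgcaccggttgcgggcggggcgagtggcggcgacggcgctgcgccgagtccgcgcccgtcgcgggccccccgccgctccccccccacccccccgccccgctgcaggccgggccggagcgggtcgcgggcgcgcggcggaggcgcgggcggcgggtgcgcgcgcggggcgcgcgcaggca
Rxra inner: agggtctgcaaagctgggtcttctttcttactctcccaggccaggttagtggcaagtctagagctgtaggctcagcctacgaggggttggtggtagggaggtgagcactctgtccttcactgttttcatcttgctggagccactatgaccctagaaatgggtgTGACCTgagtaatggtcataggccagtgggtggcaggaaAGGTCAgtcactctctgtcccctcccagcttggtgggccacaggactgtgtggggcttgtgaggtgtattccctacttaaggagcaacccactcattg
Rxrb outer: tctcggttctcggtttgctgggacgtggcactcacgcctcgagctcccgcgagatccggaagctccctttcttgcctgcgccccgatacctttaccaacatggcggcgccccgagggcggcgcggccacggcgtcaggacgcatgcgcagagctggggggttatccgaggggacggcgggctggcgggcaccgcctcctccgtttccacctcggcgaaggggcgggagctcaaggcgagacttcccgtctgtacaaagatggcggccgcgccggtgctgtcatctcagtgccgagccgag

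Of the 36 receptor genes, 33 had RefSeq windows, 48 in all; Nr3c1, Thra and Hnf4g did not. The E-box was found in 4 of the 48 windows (8.33%), beside 7.15% of all 32851 RefSeq promoter windows, and the 4 belong to Nr1i3, Rara and Thrb. The half-site was found in 11 windows (22.9%), beside 16.3% of all, in 10 genes: Nr1d2, Nr1h4, Nr5a2, Nr6a1, Pparg, Rara, Rarg, Rxra, Rxrg and Thrb. A match is a run of letters and not a measured site.

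The NR1H receptors sense oxysterols and bile acids. Nr1h3 (LXR alpha, chr2:91184061-91202834, minus strand), the liver form of the oxysterol receptor that drives cholesterol export and fat synthesis, had 154, 157 and 103 CPM in MYC_Off and 29.9, 38.6 and 46.0 CPM in MYC_On. The lowest MYC_Off library was more than 2-fold above the highest MYC_On library. The log2 fold change was 1.85 (SE 0.27, edgeR adjusted p = 0.00203), and the call held in all 14 alternatives. Nr1h2 (LXR beta), the broadly expressed form, had 66.7, 47.1 and 72.6 CPM in MYC_Off and 33.2, 42.3 and 43.8 CPM in MYC_On. Its groups did not overlap, but the log2 fold change of 0.64 missed the threshold (SE 0.24, edgeR adjusted p = 0.0589), and it passed without MYC_Off replicate 2 (adjusted p = 0.0416).

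Nr1h4 (FXR alpha), the bile acid receptor that lowers bile acid synthesis, had 34.3, 137 and 69.8 CPM in MYC_Off and 31.5, 19.6 and 28.3 CPM in MYC_On. The groups did not overlap, but replicate 1 of MYC_Off stood close to the MYC_On libraries and replicate 2 far above. The log2 fold change was 1.60 (SE 0.49, edgeR adjusted p = 0.0284). It was not called without MYC_Off replicate 2 (0.87, adjusted p = 0.0856), without any 1 of the MYC_On libraries (adjusted p 0.0683 to 0.113) and with library size alone (0.77, adjusted p = 0.135).

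Nr1h5 (FXR beta), a receptor that is functional in mice and a pseudogene in humans, moved in the opposite direction to Nr1h3 and Nr1h4. It had 4.95, 2.45 and 0 CPM in MYC_Off and 104, 129 and 84.6 CPM in MYC_On. Replicate 3 of MYC_Off held no read of it, which allows a level of up to 0.230 CPM (3 reads, for counting error only). The log2 fold change was -5.39 (SE 1.05, edgeR adjusted p = 0.00553), and the gene was called lower in all 14 alternatives. Its RefSeq window (chr3:102964084-102964383, minus strand, 51.7% G and C, close to the median of 52.7% over all windows), shown because the gene fell most of the tested members, holds neither motif and so has no capitals.
Nr1h5: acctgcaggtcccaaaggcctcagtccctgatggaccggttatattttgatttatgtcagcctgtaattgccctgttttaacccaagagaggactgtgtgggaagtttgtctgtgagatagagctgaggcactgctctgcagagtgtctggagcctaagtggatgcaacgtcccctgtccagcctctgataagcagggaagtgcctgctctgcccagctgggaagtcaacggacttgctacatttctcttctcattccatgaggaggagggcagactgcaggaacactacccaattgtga

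Per kilobase of exon, which allows levels of different genes to be compared, Nr1h5 was the most abundant of the 36 receptors in MYC_On at 37.3 ± 7.77 CPM per kb (SD, n = 3) and ranked 28 in MYC_Off at 0.869 ± 0.872 CPM per kb. In MYC_Off the order was led by Rxra (67.3 CPM per kb), Nr1h3 (54.8), Nr1h4 (34.9), Nr1i2 (22.9) and Nr1h2 (18.5). This is the order of the means: in replicate 1 of MYC_Off, Nr1h3 stood above Rxra (61.3 and 39.9 CPM per kb), and Nr1h2 (19.9) above Nr1h4 (14.9). In MYC_On, Nr1h5 was followed by Rxra (28.8 CPM per kb), Rxrb (17.9), Nr1h3 (15.2) and Nr2f6 (14.99). Summed over all 36 genes, receptor RNA came to 297, 466 and 324 CPM per kb in MYC_Off and to 208, 220 and 217 CPM per kb in MYC_On.

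The NR1I pair senses drugs and other foreign compounds and controls their breakdown. Nr1i3 (CAR, chr1:171213970-171220701, plus strand) had 6.87, 27.9 and 17.7 CPM in MYC_Off and 0.534, 0.123 and 0.148 CPM in MYC_On. The lowest MYC_Off library was above the highest MYC_On library by more than 6 CPM. The log2 fold change was 5.99 (SE 0.81, edgeR adjusted p = 0.00163), and the call held in all 14 alternatives. The annotation overlaps 74.9% of its exon bases with Tomm40l on the opposite strand. The counting strand is not given in the sources used here, so reads of the pair cannot be told apart. Nr1i2 (PXR) had 20.3, 94.1 and 60.7 CPM in MYC_Off and 12.6, 3.15 and 13.0 CPM in MYC_On. Its groups did not overlap, and its log2 fold change was 2.61 (SE 0.70, edgeR adjusted p = 0.0178). It was not called without MYC_Off replicate 2 (1.96, adjusted p = 0.0545), without MYC_On replicate 2 (2.14, adjusted p = 0.0518) and without a filter on low counts (2.52, adjusted p = 0.0516).

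The Nr1i3 window (chr1:171213720-171214019, plus strand, 54.0% G and C) is shown because it holds the E-box, at position -244 from the start, in the receptor with the second largest fitted increase among the tested members. It is printed 5′ to 3′ with the E-box in capitals.
Nr1i3: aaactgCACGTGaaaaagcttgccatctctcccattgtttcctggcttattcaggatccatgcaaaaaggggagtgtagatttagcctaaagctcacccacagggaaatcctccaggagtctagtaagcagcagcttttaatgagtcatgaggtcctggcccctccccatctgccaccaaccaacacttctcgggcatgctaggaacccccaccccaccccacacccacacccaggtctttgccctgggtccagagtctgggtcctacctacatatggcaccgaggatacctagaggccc

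**Figure D2:**
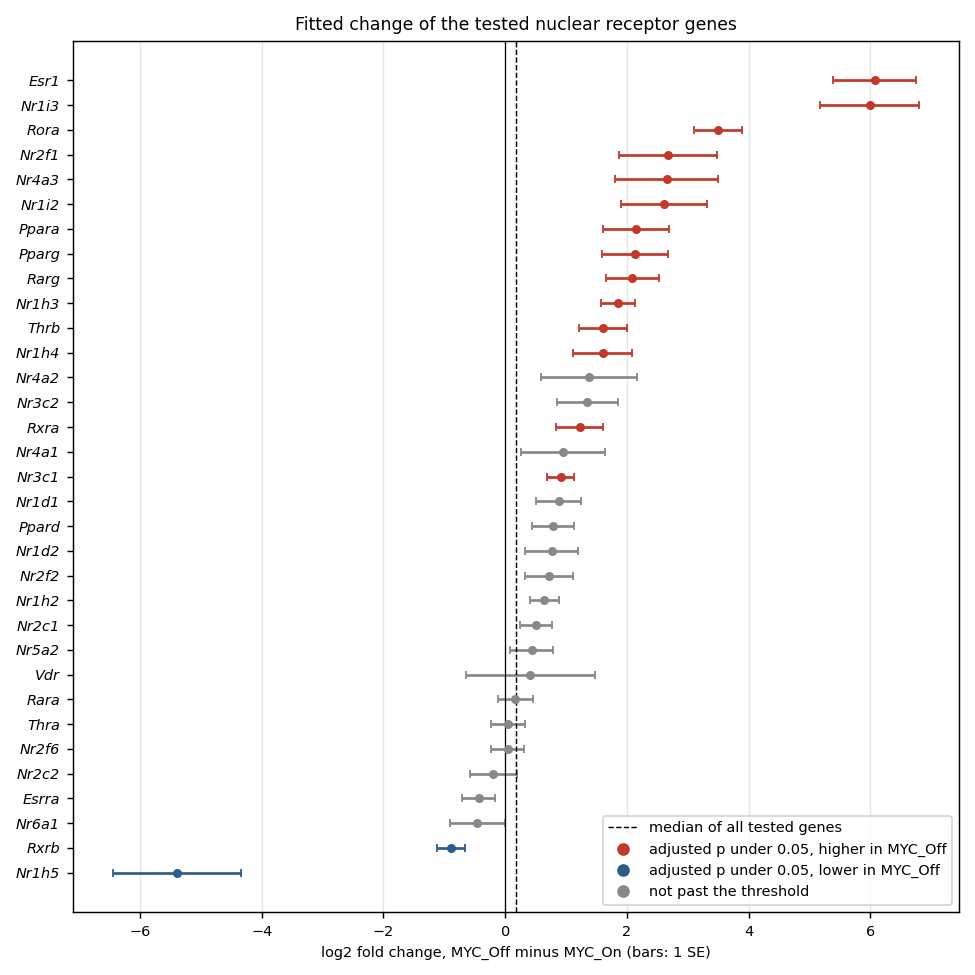
Fitted log2 fold change (MYC_Off minus MYC_On) of the 33 tested receptor genes with bars of 1 SE, coloured by call, with the median of all tested genes dashed. The genes run from Esr1 at 6.07 to Nr1h5 at -5.39, with 14 called higher and 2 called lower.

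The PPARs sense fatty acids. Ppara, the main regulator of fatty acid oxidation in liver, had 18.8, 88.01 and 41.4 CPM in MYC_Off and 11.4, 8.80 and 13.3 CPM in MYC_On. Pparg, the adipocyte and macrophage form, had 45.9, 11.6 and 16.7 CPM in MYC_Off and 4.41, 5.77 and 6.66 CPM in MYC_On. In neither gene did the groups overlap, but the 2 genes peaked in different libraries: Ppara in replicate 2 of MYC_Off and Pparg in replicate 1, the library with the most T cell, macrophage and fibroblast marker RNA. Their log2 fold changes were alike, at 2.15 for Ppara (SE 0.54, edgeR adjusted p = 0.0138) and 2.14 for Pparg (SE 0.54, edgeR adjusted p = 0.0143). Ppard, the broadly expressed form, had 31.4, 23.6 and 53.6 CPM in MYC_Off and 18.04, 25.6 and 19.5 CPM in MYC_On, with overlap and no call (log2 fold change 0.78, edgeR adjusted p = 0.0906), but it was called higher without MYC_Off replicate 2 (0.92, adjusted p = 0.0419).

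Neither Ppara nor Pparg was called without MYC_On replicate 1 (adjusted p 0.0519 for Ppara and 0.0602 for Pparg) or without MYC_On replicate 2 (0.0667 for Ppara and 0.0599 for Pparg). With library size alone Pparg was not called (1.57, adjusted p = 0.0717). The summed PPAR level, at 24.6, 30.0 and 23.6 CPM per kb in MYC_Off and 6.85, 7.66 and 8.32 CPM per kb in MYC_On, did not overlap between the groups, and the 3 MYC_Off values lay close together.

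Of the tested retinoic acid receptors, Rarg was called and Rara was not. Rarg, known best from skin and other epithelia, had 33.6, 12.4 and 37.2 CPM in MYC_Off and 5.43, 7.16 and 6.95 CPM in MYC_On. It was the 1 called receptor with its highest value in replicate 3 of MYC_Off. Its log2 fold change was 2.09 (SE 0.44, edgeR adjusted p = 0.00708), and the call held in all 14 alternatives. Rara, the broadly expressed form, had 34.8, 33.3 and 58.5 CPM in MYC_Off and 33.8, 43.9 and 34.96 CPM in MYC_On, with overlap and no call (log2 fold change 0.17, edgeR adjusted p = 0.64). Rarb, a retinoic acid-induced form, had 47 reads over the MYC_Off libraries, 0 of them in replicate 3, and 1 read over the MYC_On libraries. The scaled ratio was 71.3 with an exact 95% interval of 12.2 to 2875, and 34.1% of its exon bases overlap Top2b on the opposite strand. Rarb was not tested with the filter on low counts, and it was called higher without that filter and without MYC_Off replicate 3. Vdr, the vitamin D receptor, was low in both groups, at 2.09, 0.459 and 3.84 CPM in MYC_Off and 0.312, 0.614 and 3.90 CPM in MYC_On, with no call (edgeR adjusted p = 0.765).

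Of the thyroid hormone receptors, Thrb was called and Thra was not. Thrb, the main form of liver, had 18.7, 55.9 and 33.1 CPM in MYC_Off and 11.7, 11.6 and 12.1 CPM in MYC_On, with no overlap. Its log2 fold change was 1.60 (SE 0.40, edgeR adjusted p = 0.013). The call was lost without any 1 of the MYC_On libraries (adjusted p 0.0539 to 0.0586) and with library size alone (0.78, adjusted p = 0.0821). Thra, the form of heart and brain, had 34.1, 18.3 and 23.5 CPM in MYC_Off and 21.6, 25.6 and 26.4 CPM in MYC_On, overlapping and not called (log2 fold change 0.05, edgeR adjusted p = 0.90), and 5.7% of its exon bases overlap Nr1d1 on the opposite strand. Its direction turned under library size alone (-0.62) and under 5 other settings.

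Among the steroid receptors, Esr1 (oestrogen receptor alpha, chr10:4611593-5005614, plus strand) showed the largest fitted increase of the tested members. It had 23.8, 66.4 and 21.4 CPM in MYC_Off and 0.668, 0.246 and 0.740 CPM in MYC_On. The groups were far apart in every library, and the log2 fold change was 6.07 (SE 0.68, edgeR adjusted p = 0.000979). The call held in all 14 alternatives, with log2 fold changes of 5.28 to 6.28. Nr3c1, the glucocorticoid receptor, had 110, 133 and 102 CPM in MYC_Off and 68.4, 51.3 and 63.9 CPM in MYC_On. This was the smallest called increase, with no overlap and a log2 fold change of 0.91 (SE 0.22, edgeR adjusted p = 0.0118). The call was lost without MYC_On replicate 2 (0.75, adjusted p = 0.0626), without MYC_On replicate 3 (0.89, adjusted p = 0.0524) and with library size alone (0.18, adjusted p = 0.578). Nr3c2, the mineralocorticoid receptor, had 8.35, 19.98 and 34.3 CPM in MYC_Off and 9.66, 6.47 and 8.43 CPM in MYC_On. Replicate 1 of MYC_Off lay within the MYC_On range, and the gene was not called (log2 fold change 1.35, edgeR adjusted p = 0.0557), but was called by DESeq2 (adjusted p = 0.0328) and when MYC_Off replicate 1 was left out (adjusted p = 0.00696).

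Receptors of the circadian clock changed unevenly. Rora (chr9:68653786-69388246, plus strand), an activator of clock and lipid genes, had 37.0, 91.5 and 49.5 CPM in MYC_Off and 5.75, 4.46 and 5.52 CPM in MYC_On. All MYC_Off libraries were far above the MYC_On libraries, the log2 fold change was 3.50 (SE 0.39, edgeR adjusted p = 0.000979), and the call held in all 14 alternatives. Nr1d1 and Nr1d2 (REV-ERB alpha and beta) repress the genes that Rora activates. Nr1d1 had 45.2, 54.6 and 20.5 CPM in MYC_Off and 19.95, 25.5 and 19.8 CPM in MYC_On, and Nr1d2 had 61.7, 95.7 and 29.9 CPM in MYC_Off and 47.4, 27.1 and 36.0 CPM in MYC_On. Replicate 3 of MYC_Off lay within the MYC_On range for both, and neither was called (edgeR adjusted p 0.0799 and 0.172). Without that library both were called, Nr1d1 with a log2 fold change of 1.10 (adjusted p = 0.00829) and Nr1d2 with 0.99 (adjusted p = 0.0339). The labels give no hour of collection.

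The NR4A receptors are immediate early genes that need no known ligand. Nr4a3 had 5.33, 0.842 and 0.922 CPM in MYC_Off and 0.267, 0.368 and 0.493 CPM in MYC_On, without overlap and with replicate 1 of MYC_Off the highest. Its log2 fold change of 2.65 (SE 0.85, edgeR adjusted p = 0.0341) fell to 1.07 and lost its call without that library (adjusted p = 0.147). It was also lost without any 1 of the MYC_On libraries (adjusted p 0.0914 to 0.125), with limma-voom (adjusted p = 0.0706) and with library size alone (adjusted p = 0.0894). Nr4a1 had 10.7, 2.83 and 2.00 CPM in MYC_Off and 2.36, 3.56 and 2.12 CPM in MYC_On, and Nr4a2 stayed under 1.5 CPM in all 6 libraries. Both overlapped between groups and were not called (edgeR adjusted p 0.274 and 0.175).

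Of the orphan receptors, Nr2f1 (COUP-TFI), a developmental repressor, was the 1 called, at 2.86, 0.842 and 1.08 CPM in MYC_Off and 0.267, 0.409 and 0.0493 CPM in MYC_On. The groups did not overlap, replicate 1 of MYC_Off was the highest, and the log2 fold change was 2.68 (SE 0.81, edgeR adjusted p = 0.027). The call did not hold without MYC_Off replicate 1 (1.79, adjusted p = 0.0871), without any 1 of the MYC_On libraries (adjusted p 0.0607 to 0.0982), without a filter (adjusted p = 0.0502) and with library size alone (adjusted p = 0.0837). Its paralogue Nr2f2 (COUP-TFII), which marks veins and mesenchyme, had 74.3, 67.0 and 27.0 CPM in MYC_Off and 40.5, 26.2 and 35.9 CPM in MYC_On. It was not called (log2 fold change 0.71, edgeR adjusted p = 0.163), but was called without MYC_Off replicate 3 (0.96, adjusted p = 0.0235).

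The other orphan receptors tested were not called and had fitted log2 fold changes between -0.46 for Nr6a1 and 0.50 for Nr2c1. Nr5a2 (LRH-1), a liver and pancreas regulator of bile acid genes, averaged 57.7 ± 27.8 CPM in MYC_Off and 42.7 ± 7.27 CPM in MYC_On (SD, n = 3 each). Esrra, a regulator of mitochondrial genes, averaged 26.9 ± 5.06 CPM in MYC_Off and 36.4 ± 8.997 CPM in MYC_On, and Nr6a1 (GCNF), a germ cell and embryonic receptor, 8.71 ± 4.00 CPM in MYC_Off and 11.9 ± 3.46 CPM in MYC_On. The testicular receptor Nr2c1 had 13.96, 20.97 and 20.1 CPM in MYC_Off and 12.5, 12.9 and 13.5 CPM in MYC_On, without overlap but with an edgeR adjusted p of 0.143. Its paralogue Nr2c2 averaged 9.98 ± 3.77 CPM in MYC_Off and 11.4 ± 3.08 CPM in MYC_On, and 30.7% of its exon bases overlap Mrps25 on the opposite strand. Nr2f6 averaged 45.9 ± 14.7 CPM in MYC_Off and 44.7 ± 2.81 CPM in MYC_On, with 54.4% of its exon bases overlapping Ocel1. Hnf4g, the intestinal HNF4, had 4 reads over the MYC_Off libraries and 1 over the MYC_On libraries and was not tested.

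Of 29 paralogue shares within subfamilies, 15 did not overlap between the groups and 14 did, among them all shares of the NR3C, NR1D and NR2C pairs. None passed an exact test after adjustment. Shares of a subfamily add up to the whole, so both shares of a pair mirror each other and are not separate results. No such share was taken over other genes. Rxra supplied 84.8 ± 7.24% of RXR level per kilobase in MYC_Off and 61.7 ± 2.56% in MYC_On (SD, n = 3 each), and Rxrb 14.4% in MYC_Off and 38.3% in MYC_On. Nr1h5 supplied 0.81 ± 0.90% of the NR1H level in MYC_Off and 49.0 ± 7.58% in MYC_On, while Nr1h3 supplied 50.8% in MYC_Off and 20.05% in MYC_On. Rarg supplied 38.4% of the RAR level in MYC_Off and 15.1% in MYC_On, and Nr1i3 supplied 15.1% of the NR1I level in MYC_Off and 1.75% in MYC_On. The Nr1i3 share in MYC_On rests on 12, 3 and 3 reads, and the exon overlap with Tomm40l limits it in both groups. None of the shares named so far overlapped between the groups. The Thrb share was 25.4%, 65.6% and 46.7% in MYC_Off and 25.2%, 22.0% and 22.2% in MYC_On, so that replicate 1 of MYC_Off was barely apart from MYC_On. The 15 shares without overlap had an exact two-sided permutation p of 0.1, the smallest that 3 against 3 libraries allows, and 0.193 after Benjamini-Hochberg adjustment.

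**Figure D3:**
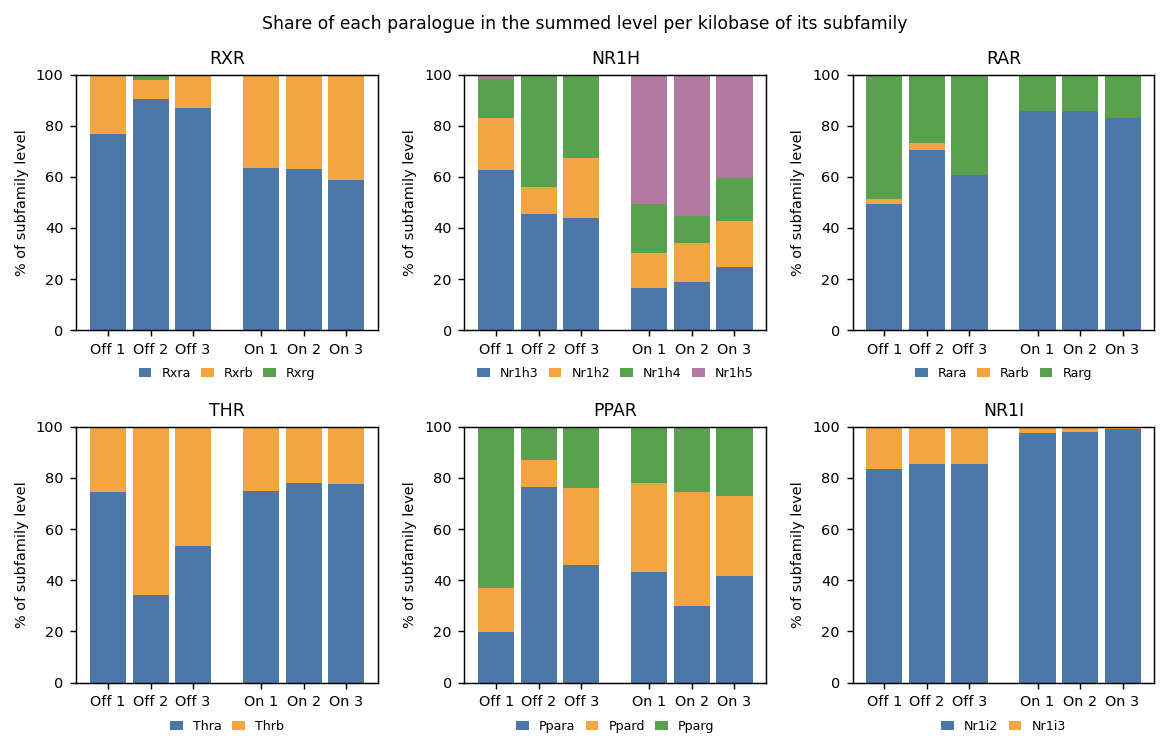
Share of each paralogue in the summed level per kilobase of 6 receptor subfamilies, as stacked bars for each MYC_Off library (left) and each MYC_On library (right). Rxra, Nr1h3 and Rarg take larger shares in the MYC_Off bars, Nr1h5 is nearly lost from them, and the PPAR bars of MYC_Off differ among themselves.

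The Ppara and Pparg shares varied within MYC_Off more than between the groups. Pparg supplied 63.1%, 13.0% and 23.9% of the PPAR level in MYC_Off and 21.8%, 25.5% and 27.1% in MYC_On. Ppara supplied 19.95%, 76.5% and 45.8% in MYC_Off and 43.2%, 30.0% and 41.7% in MYC_On. Replicate 1 of MYC_Off was thus led by Pparg and replicate 2 by Ppara. Ppard supplied 17.0%, 10.5% and 30.3% in MYC_Off and 35.02%, 44.5% and 31.2% in MYC_On, without overlap. The ratio of summed RXR level to the summed level of its 15 partner receptors was 0.329, 0.491 and 0.381 in MYC_Off and 0.431, 0.460 and 0.448 in MYC_On, with overlapping groups. Without Nr1h5 among the partners it was 0.332, 0.493 and 0.381 in MYC_Off and 0.683, 0.785 and 0.628 in MYC_On, and every MYC_Off library was lower.

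The MYC_Off libraries differed from each other more than the MYC_On libraries did. The median ratio of the highest to the lowest library was 2.78 in MYC_Off and 1.51 in MYC_On over the tested members, beside 1.97 in MYC_Off and 1.44 in MYC_On over all tested genes. Of the 14 receptors called higher, 10 had their highest value in replicate 2 of MYC_Off, beside 29.7% of all genes called higher. That library had the highest pericentral and periportal marker sums of the 6 libraries, and the hepatocyte list was highest in replicate 3. Pparg, Nr4a3 and Nr2f1 were highest in replicate 1 of MYC_Off, where 43.9% of all genes called higher peaked, and that library had the highest T and NK cell, B cell, macrophage, endothelial, stellate and cholangiocyte marker sums. The part of these markers in the order of the libraries was not tested.

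**Figure D4:**
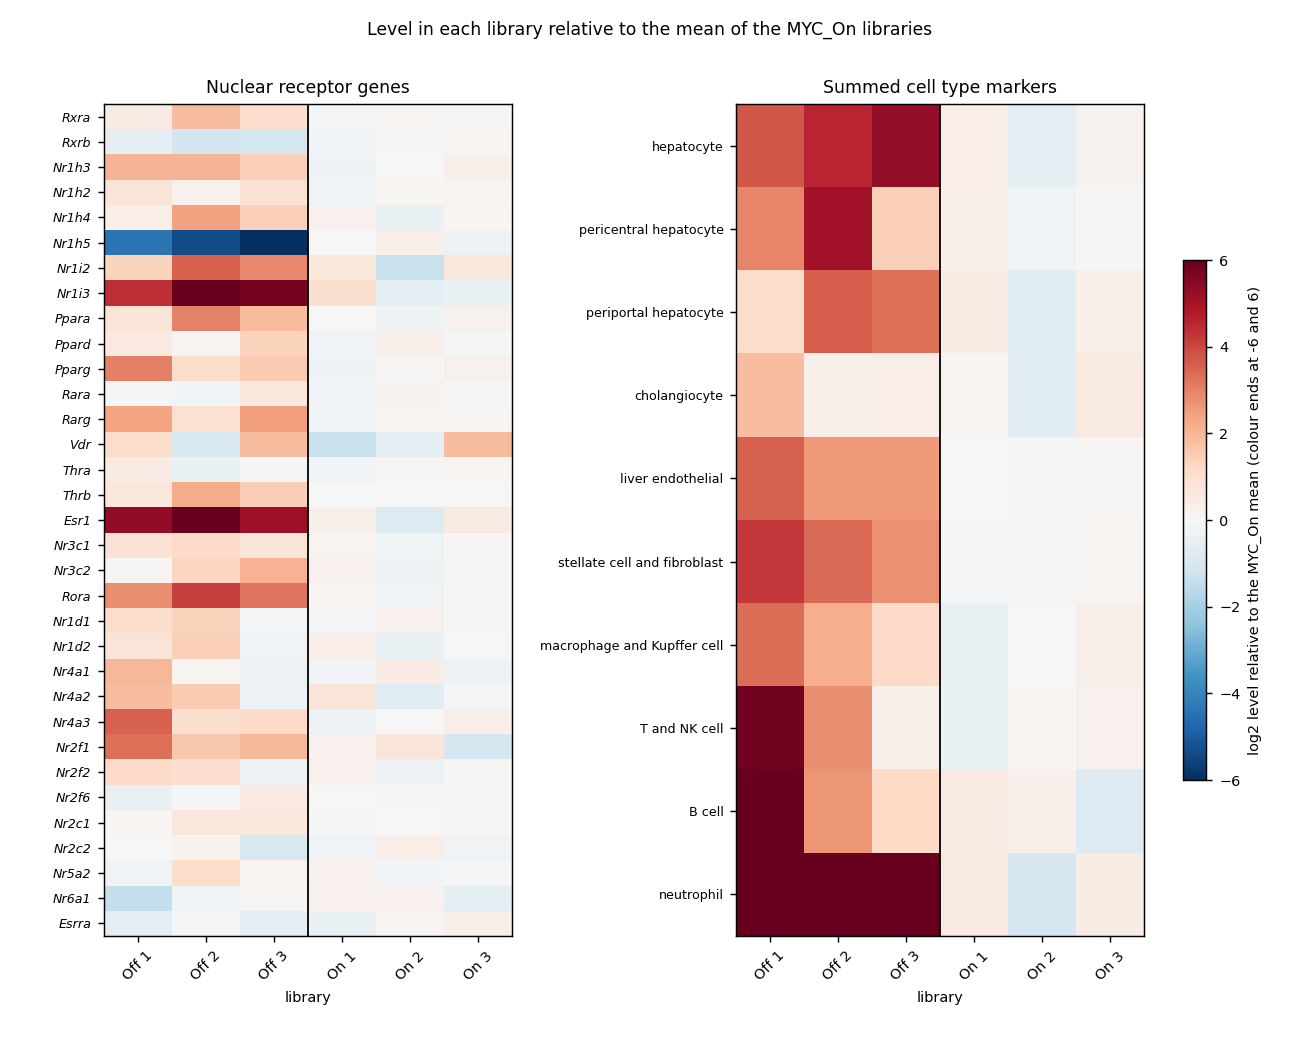
Log2 level of each tested receptor gene (left panel) and of each summed marker list (right panel) in each library, relative to the mean of the MYC_On libraries, with MYC_Off libraries to the left of the line. Rxra, Nr1h4, Nr1i2, Ppara and Thrb are darkest red in replicate 2 of MYC_Off, and Pparg, Nr4a3 and Nr2f1 in replicate 1.

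Coregulators, the proteins that receptors recruit, were examined through 2 lists. Of 17 coactivator genes tested, 4 were higher and 5 lower in MYC_Off, so that 52.9% were called, beside 52.7% of all tested genes (29.9% higher and 22.8% lower). The median log2 fold change was -0.33, beside 0.18 over all tested genes. Ppargc1a (PGC-1 alpha), the inducible coactivator of fasting liver, averaged 8.10 ± 4.998 CPM in MYC_Off and 0.496 ± 0.429 CPM in MYC_On (SD, n = 3 each; log2 fold change 4.01, SE 0.80, edgeR adjusted p = 0.00598), and Pnrc1 rose by 1.97 on the log2 scale. Ppargc1a had 0.980, 0.164 and 0.345 CPM in the MYC_On libraries. It passed the low-count filter only through MYC_Off, so the filter favoured its direction. The acetyltransferase gene Kat2a averaged 37.1 ± 6.82 CPM in MYC_Off and 174 ± 22.2 CPM in MYC_On, a log2 fold change of -2.23 (SE 0.24, edgeR adjusted p = 0.000946). The arginine methyltransferase gene Carm1 fell by 2.13 on the log2 scale. With library size alone, 3 coactivator genes were higher and 9 lower.

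Of 12 corepressor genes, 0 were higher and 4 lower in MYC_Off, beside 29.9% higher and 22.8% lower among all tested genes, with a median log2 fold change of -0.58. The 4 were Hdac3, the deacetylase of the NCoR complex, at 45.7 ± 5.43 CPM in MYC_Off and 72.9 ± 6.12 CPM in MYC_On (log2 fold change -0.67, edgeR adjusted p = 0.0253), Gps2 of the same complex (-0.88), Lcor (-1.56) and Sin3a (-0.66). That count moved with the settings: 9 were lower with library size alone, 1 without MYC_On replicate 1 or 2, and 2 without MYC_On replicate 3 or MYC_Off replicate 3.

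Textbook target genes of the receptors were examined through 8 lists, and in each list more genes were called higher than lower in MYC_Off. Of all tested genes, 29.9% were called higher and 22.8% lower, the shares to set beside each list. Without MYC_On replicates 1, 2 and 3, 19.0%, 18.7% and 19.2% of all genes were called higher. The lists give transcript levels of the targets and not the activity of a receptor, and many of these genes are also hepatocyte genes. All 6 tested FXR targets were higher, beside 29.9% of all tested genes, with a median log2 fold change of 5.43. Among them Abcb4, the phospholipid exporter of bile, averaged 124 ± 60.2 CPM in MYC_Off and 4.35 ± 0.82 CPM in MYC_On (log2 fold change 4.83, SE 0.44, edgeR adjusted p = 0.000807). Nr0b2 (SHP), the orphan receptor that represses bile acid synthesis, had 11.1, 52.7 and 18.4 CPM in MYC_Off and 0, 0 and 0.0493 CPM in MYC_On, the last from 1 read. Like Slc51b, with at most 0.312 CPM in MYC_On, Nr0b2 passed the low-count filter only through MYC_Off. The count of 6 thus includes genes whose direction the filter favoured. Other target lists hold such genes too, among them Ugt1a1, Dio1, Hr, Abcg5, Npas2 and Cyp26b1.

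Of 13 tested CAR and PXR targets, 12 were higher (92.3%, beside 29.9% of all tested genes) and 0 lower, with a median log2 fold change of 5.55. Cyp2b10 of this list was not tested, at 0.440, 1.76 and 0.307 CPM in MYC_Off and 0, 0.0819 and 0.0986 CPM in MYC_On. Ces2a, a carboxylesterase gene, averaged 220 ± 143 CPM in MYC_Off and 1.22 ± 0.38 CPM in MYC_On (log2 fold change 7.49, edgeR adjusted p = 0.000896), and Ugt1a1, which conjugates bilirubin, averaged 38.2 ± 35.4 CPM in MYC_Off and 0.134 ± 0.039 CPM in MYC_On. Without any 1 of the MYC_On libraries, 8 of these genes were called. Of 13 LXR targets, 9 were higher (69.2%) and 0 lower (median 2.32), led by the sterol exporter pair Abcg5 and Abcg8. Abcg5 had 50.7, 297 and 136 CPM in MYC_Off and 0.356, 0.327 and 0.740 CPM in MYC_On (log2 fold change 8.41, SE 0.84, edgeR adjusted p = 0.000881). Without any 1 of the MYC_On libraries, 6 LXR targets were called.

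Of 25 tested PPAR alpha targets, 15 were higher (60%, beside 29.9% of all tested genes) and 1 lower, with a median log2 fold change of 1.59. Ehhadh, a peroxisomal oxidation enzyme gene, had 65.4, 279 and 207 CPM in MYC_Off and 18.04, 11.1 and 13.4 CPM in MYC_On (log2 fold change 3.70, SE 0.55, edgeR adjusted p = 0.00219), and the lipid droplet gene Plin2 averaged 225 ± 24.9 CPM in MYC_Off and 55.4 ± 9.83 CPM in MYC_On. The acyl-CoA thioesterase gene Acot1 was the 1 called lower, at 6.49 ± 5.07 CPM in MYC_Off and 64.7 ± 5.61 CPM in MYC_On (-3.31, edgeR adjusted p = 0.00936). The count of higher genes fell to 5 without MYC_On replicate 2, and 4 genes were lower with library size alone.

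Of 14 glucocorticoid receptor targets, 12 were higher (85.7%, beside 29.9% of all tested genes) and 0 lower (median 2.81). Among them were Tsc22d3 (GILZ), at 74.7 ± 42.6 CPM in MYC_Off and 10.5 ± 0.62 CPM in MYC_On, and Zfp36, at 89.9 ± 37.1 CPM in MYC_Off and 19.5 ± 3.33 CPM in MYC_On. Without MYC_On replicate 2, and also without a filter, 8 were called higher. Of 9 thyroid hormone receptor targets, 5 were higher (55.6%) and 2 lower (median 1.08). Dio1, the deiodinase gene, averaged 32.8 ± 19.8 CPM in MYC_Off and 0.207 ± 0.104 CPM in MYC_On, and Hr (hairless) rose by 5.96 on the log2 scale. Klf9 fell by 0.72 and Idh3a, a citric acid cycle gene, by 2.26. Of 8 tested retinoic acid receptor targets, 5 were higher (62.5%) and 1 lower (median 2.20). Cyp26b1 and Dhrs3, which clear and store retinoids, were higher. Crabp2, a retinoic acid carrier, was lower (0.417 ± 0.590 CPM in MYC_Off and 33.4 ± 11.6 CPM in MYC_On). Cyp26b1, Hoxa5 and Cyp26a1, all called higher, averaged 0.162, 0.269 and 0.300 CPM in MYC_On. The low-count filter thus favoured their direction, and for Crabp2 it favoured the opposite direction. With MYC_On replicate 1, 2 or 3 left out, the number called higher was 3, 2 or 2.

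Of 9 tested REV-ERB and ROR targets, 5 were higher (55.6%, beside 29.9% of all tested genes) and 0 lower (median 2.49). The 5 were the clock activators Arntl and Npas2, the bile acid synthesis gene Cyp8b1, Lpin1 and Insig2. Arntl had 11.4, 9.34 and 23.4 CPM in MYC_Off and 2.49, 2.66 and 2.71 CPM in MYC_On (log2 fold change 2.49, SE 0.43, edgeR adjusted p = 0.00363). Its highest library was replicate 3 of MYC_Off. Cyp8b1 had 68.4, 98.7 and 172 CPM in MYC_Off and 2.67, 0.941 and 2.27 CPM in MYC_On. Cyp8b1, Npas2 and Lpin1 likewise peaked in replicate 3 of MYC_Off, whereas Insig2 peaked in replicate 2 (60.7, 123 and 54.4 CPM in MYC_Off). A link between receptor and target levels across the libraries was not tested.

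**Figure D5:**
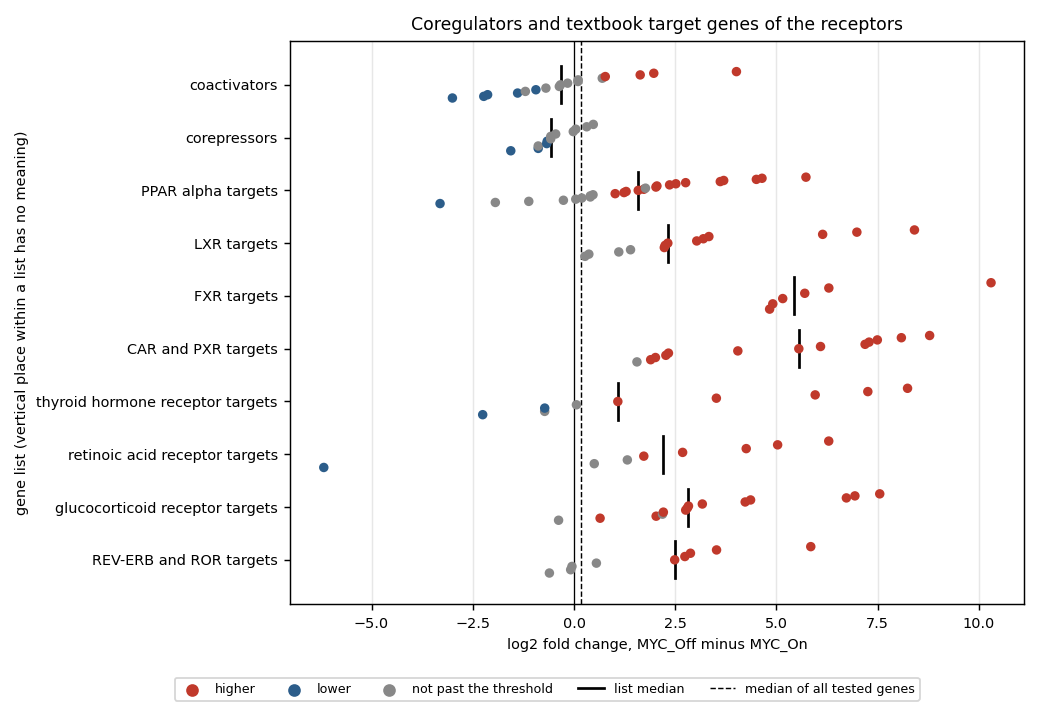
Log2 fold change (MYC_Off minus MYC_On) of each tested coregulator or target gene, with lists from top to bottom and the list median as a tick; the dashed line is the median of all tested genes at 0.18. The FXR and the CAR and PXR lists have medians above 5 and the corepressor list has a median of -0.58.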

How the data were processed

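The authors deposited raw read counts per gene symbol for 6 libraries of total RNA from flash frozen liver tumours, 3 per group, extracted with a column kit (stated in the labels' protocols). The submitters' processing notes name Trimmomatic, STAR, Picard, featureCounts, DESeq2 and mm10. Not given in the sources used here are tool versions, the strand setting and the treatment of multiply matching reads. In 26 rows a symbol had become a date and 2 rows repeated a symbol. These rows were kept under a row number.

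The 36 members, 10 coregulator or target lists, 10 marker lists and 1 list of MYC-responsive growth genes were chosen with earlier results of these data known. In the lists, the 2 called genes with the smallest adjusted p in each direction are named, or all called genes of a list with 5 or fewer. Further genes are named where a low count or a single library limits a result. Counts were tested with edgeR 4.0.16 in R 4.3.3 on the whole table: filterByExpr (minimum count 10, minimum total 15), TMM scaling, robust quasi-likelihood fit, Benjamini-Hochberg adjustment over 14130 genes, threshold 0.05. The script was tested on simulated data. SEs derive from the fold change and F statistic. Intervals and floors cover counting error only. Lengths and coordinates are from GENCODE mouse release 21 (mm10), which holds all 36 members and 91.7% of all symbols. Levels per kilobase use exon union length. Libraries of a group differed by more than sampling noise (lowest chi-square 29.1 per degree of freedom). Alternatives were library size only, DESeq2 size factors, TMM without the 20 most abundant genes, no filter, 1 CPM in 3 libraries, DESeq2 1.42.0, limma-voom (limma 3.58.1), a replicate block, an adjusted p of 0.01, shares without length scaling, and leaving out each library. List counts under these settings were added after seeing the data. Figures used matplotlib 3.10.9.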

Additional observations from a re-analysis of the deposited data

How the results depend on the processing

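Of the 16 called members, 7 kept their call and direction under all 14 alternatives of scaling, filter, test, pairing and libraries: Rxrb, Nr1h3, Nr1h5, Nr1i3, Rarg, Esr1 and Rora. The count of members higher in MYC_Off was 14. It was 7 with library size only, 9 with a replicate block, 5 at an adjusted p of 0.01, and 5 to 18 when 1 library was left out, with 7, 5 and 8 without MYC_On replicates 1, 2 and 3. Without those libraries 19.0%, 18.7% and 19.2% of all genes were called higher. Without MYC_Off replicates 1, 2 and 3, 13, 13 and 18 members and 27.9%, 26.4% and 29.3% of all genes were called higher. The cause was not tested. The count lower was 2 in the other settings, 5 with library size only (Nr1h5, Rxrb, Esrra, Nr2f6 and Nr6a1) and 1 at an adjusted p of 0.01.

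The replicate numbers share only a number: deviations of same-numbered libraries correlated at -0.262, -0.168 and 0.04. With them as a block, Rxra (adjusted p = 0.064), Nr1h4 (0.0962), Nr1i2 (0.0696), Nr4a3 (0.121) and Nr2f1 (0.0528) were not called, and 2 corepressor genes were lower.

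Changes of direction were in members that are not called with TMM, and the cause was not tested. With library size only, Nr1h2 was at -0.069, Rara at -0.60, Vdr at -0.28, Thra at -0.62, Nr2c1 at -0.27, Nr5a2 at -0.36 and Nr2f6 at -0.74 (adjusted p = 0.0371). With DESeq2 size factors or DESeq2, Thra was at -0.024 in both and Nr2f6 at -0.056 and -0.057. Without a filter, Thra was at -0.047 and Nr2f6 at -0.053, and Nr2f6 was at -0.018 with limma-voom and -0.0073 with the block. When 1 library was left out, the log2 fold change ran between -0.22 and 0.25 for Rara, -0.35 and 2.13 for Vdr, -0.38 and 0.17 for Thra, -0.29 and 1.30 for Nr4a1, -0.33 and 0.082 for Nr2f6, and -0.11 and 0.53 for Nr5a2. Depth limits Rxrg, Rarb and Hnf4g, which had 1 MYC_On read each. Of the list counts, PPAR alpha targets lower were 1 with TMM and 3 with DESeq2, DESeq2 size factors or limma-voom, and retinoic acid receptor targets higher were 5 with TMM, 3 without a filter or with limma-voom and 2 with a filter of 1 CPM, where 5 were tested. Of the marker counts, with a replicate block, limma-voom and no filter in this order, T and NK cell markers higher were 1, 0 and 2, macrophage markers 2, 4 and 4, periportal markers 3, 3 and 3, and pericentral markers 2, 3 and 3. Periportal markers higher were 4 with library size only, T and NK cell markers 2 and neutrophil markers 3 with a filter of 1 CPM, and hepatocyte markers 4 of 6 tested without the 20 most abundant genes.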
